A study of Mus musculus with 22 samples.

Results

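Cells build saturated fatty acids in the cytosol from acetyl-CoA, which is carboxylated to malonyl-CoA and then condensed stepwise into palmitate. Palmitate is elongated and desaturated in the endoplasmic reticulum, and a fatty acid must be joined to CoA before it can enter membrane lipids. Many genes of this route are known targets of the SREBP transcription factors, and naive T cells switch the route on when they are stimulated to grow and divide. The 10 genes described here were taken by name and cover these steps: Acly and Acss2 supply cytosolic acetyl-CoA, Acaca and Fasn make palmitate, Elovl6 elongates it, Scd1, Scd2, Fads1 and Fads2 introduce double bonds, and Acsl3 activates fatty acids. All 10 were found among the 21674 genes that carry a symbol in the deposited normalized table, and all 10 passed the filter on low counts that left 21183 genes for testing.

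RNA was sequenced in bulk from CD8+ T cells of 8 mice in 22 libraries. KI denotes mice of the line labelled Tcaim KI Cd4Cre with the genotype label hocre (3 mice), wt denotes mice of that same line with the label wtcre (3 mice), and libraries labelled KO come from the line labelled Tcaim KO Cd4Cre with the label hocre (2 mice). All 3 genotypes thus carry Cd4Cre in the name of their line, Cre recombinase under Cd4 control, which acts in both CD4 and CD8 lineages of T cells. No wt mice of the KO line were analysed here, the labels used here give no age, and both mice labelled KO were female while KI and wt came from male mice in experiments 1 and 3 and female mice in experiment 5. Naive cells of spleen and lymph nodes, left after magnetic removal of other cells, were sequenced at isolation or after stimulation through plate-bound anti-CD3 and soluble anti-CD28 for 24 h or 48 h. The 48 h time exists for all genotypes and the 24 h time for KI and wt only. Each mouse gave a library at every time of its genotype, and KI and wt mice form 1 pair in each of experiments 1, 3 and 5, whose numbers name the replicates, while mice labelled KO belong to experiments 1 and 5.

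Total counts per library ran from 62551905 to 93489115. Levels are given as CPM, the count relative to the library total as scaled by the trimmed mean of M values (TMM), and a level that is compared between genes is given as FPKM, the deposited value per transcript length. Tcaim itself was 3.25, 4.5 and 4.58 higher on the log2 scale in KI than in wt at 0 h, 24 h and 48 h. In libraries labelled KO it did not pass as lower, with log2 differences of 0.21 (edgeR adjusted p 1) and -0.19 (edgeR adjusted p 0.84), so every direction drawn from these libraries rests on the label alone. The T cell genes Cd3d, Cd3e, Cd8a, Cd8b1, Trac and Lck together held 2668 to 5361 CPM in every library. The replicate 1 mouse labelled KO stood apart: its naive library had 184 CPM of Cd4 and 866 CPM of 4 summed B cell markers, and its 48 h library had 152 CPM of Cd4 and lay at 92 on the second principal component, where the next library lay at 40.3. Because the RNA is from bulk samples, fewer cells of a type and less RNA per cell cannot be told apart.

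Promoter stretches of 3 members are shown to compare a gene that differed between KI and wt at 48 h (Acsl3) with a pair that did not pass that test (Fasn and Acly). Each is the 250 bases upstream of the RefSeq start on GRCm38.p6, written 5′ to 3′ along the gene, and capitals mark matches on either strand to CCAAT, the core of the NF-Y site, or to GGGCGG, the core of the Sp1 site. Acsl3 lies at chr1:78657575-78657824 on the plus strand, Fasn at chr11:120824548-120824797 on the minus strand and Acly at chr11:100528001-100528250 on the minus strand.
Acsl3: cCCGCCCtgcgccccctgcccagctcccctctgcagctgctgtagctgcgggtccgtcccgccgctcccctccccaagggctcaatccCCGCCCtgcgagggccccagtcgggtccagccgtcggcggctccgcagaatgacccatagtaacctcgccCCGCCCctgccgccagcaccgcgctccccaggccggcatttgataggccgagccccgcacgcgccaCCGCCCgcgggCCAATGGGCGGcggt
Fasn: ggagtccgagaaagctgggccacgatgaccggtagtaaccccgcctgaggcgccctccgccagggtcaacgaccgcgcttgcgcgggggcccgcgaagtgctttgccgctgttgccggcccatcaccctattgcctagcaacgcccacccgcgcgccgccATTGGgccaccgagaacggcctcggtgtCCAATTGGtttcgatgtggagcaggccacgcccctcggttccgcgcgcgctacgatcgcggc
Acly: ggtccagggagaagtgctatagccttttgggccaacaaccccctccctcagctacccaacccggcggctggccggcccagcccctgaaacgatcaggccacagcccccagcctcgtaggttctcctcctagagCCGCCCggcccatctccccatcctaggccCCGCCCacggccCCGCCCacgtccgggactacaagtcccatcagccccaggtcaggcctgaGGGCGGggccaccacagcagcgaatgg
Of the 10 members 7 had an entry in the RefSeq promoter table (not Scd1, Scd2 or Fads1), and the entry of Acaca belongs to a start far inside the gene span of the files. The windows of Acss2, Elovl6 and Fads2 also reach into the gene as the files or GENCODE annotate it, so matches in these 4 windows may not lie upstream of the gene. CCAAT was present in 3 of the 7 (Acsl3, Acss2 and Fasn), against 33.8% of 32851 promoters of the same length. GGGCGG was present in 4 of the 7 (Acly, Acsl3, Acss2 and Fads2), against 32.7% of promoters. In Acsl3 the CCAAT is followed directly by a GGGCGG, and in Fasn a CCAAT and its reverse complement overlap. The core of a sterol regulatory element, TCACNCCAC (1.05% of promoters), and the E-box CACGTG (6.02%) were each found in 0 of the 7. With shares this low and only these letters searched, 0 of 7 windows does not show that the genes lack such sites. A match describes these letters and is no evidence of a bound site.

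In wt cells all 10 genes differed from naive at 24 h of stimulation and all but 1 at 48 h, in both directions. At 48 h against naive, 8 members rose, Acss2 fell and Scd1 did not pass the test, so that 9 of 10 were called by edgeR at an adjusted p under 0.05, where 56.4% of all tested genes were called, 29.6% higher and 26.8% lower. The median log2 fold change over the members was 1.62, against -0.04 over all tested genes. At 24 h all 10 were called, 8 higher and 2 lower, against 48.4% of tested genes (26.3% higher and 22% lower). The plot of CPM by library shows every value behind these counts.

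**Figure D1:**
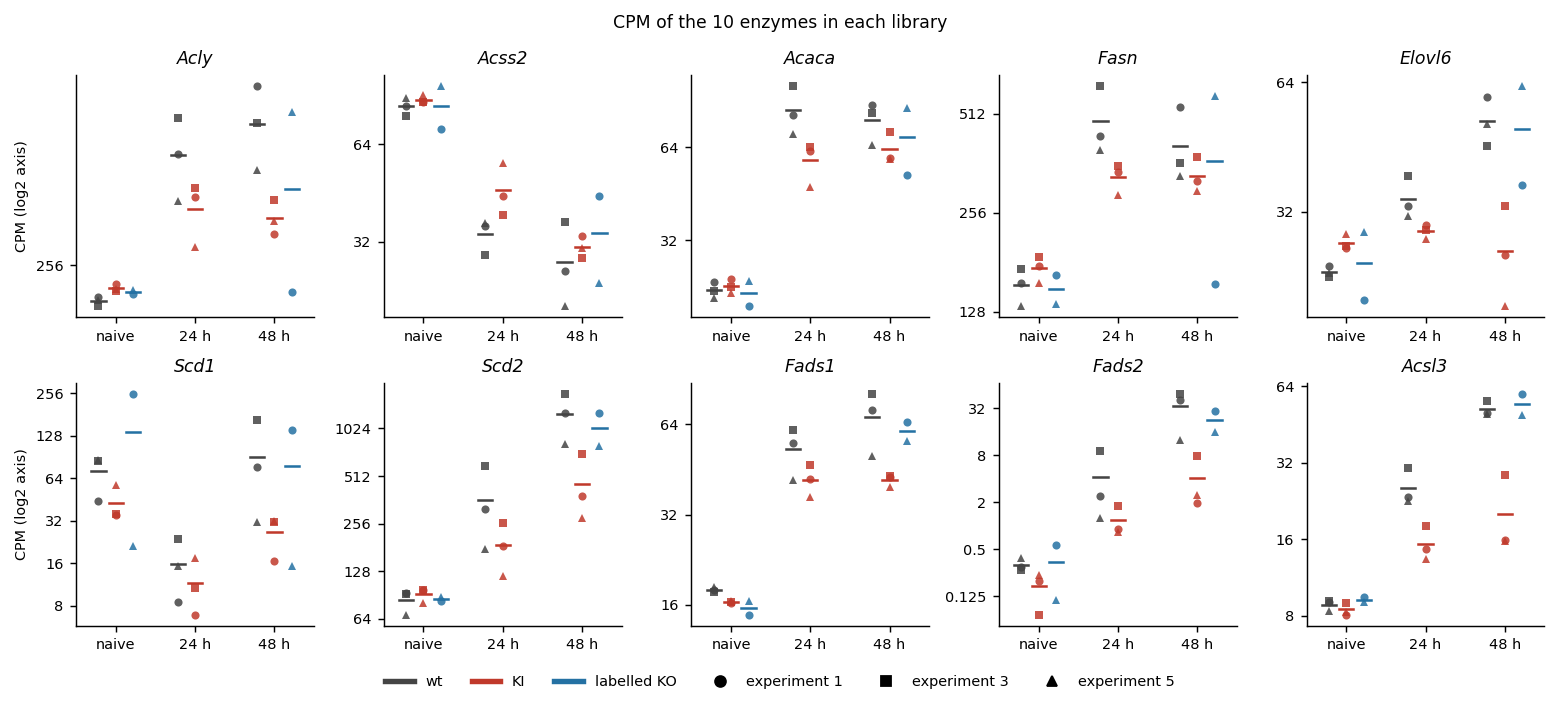
CPM of each enzyme on a log2 axis in 22 libraries, naive and at 24 h and 48 h, for wt (grey), KI (red) and libraries labelled KO (blue). Points are libraries, shapes are experiments and short bars are group means. At 48 h all 3 KI libraries lie below all 3 wt libraries for Acly, Elovl6, Scd2, Fads1, Fads2 and Acsl3, and Acss2 is the member whose level falls with stimulation in every genotype.

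Among the suppliers of acetyl-CoA, the 2 genes went opposite ways. Acly, ATP citrate lyase (ENSMUSG00000020917, chromosome 11, 100476353 to 100528000), had 230.7, 223.9 and 228.0 CPM in naive wt libraries of experiments 1, 3 and 5, 369.6, 416.2 and 316.6 CPM at 24 h and 462.4, 408.4 and 350.0 CPM at 48 h. The naive wt libraries lay below all stimulated ones, and the log2 rise was 0.69 by 24 h and 0.84 by 48 h (SE 0.162, edgeR adjusted p 2.51e-04). Acss2, the cytosolic acetyl-CoA synthetase that uses free acetate (ENSMUSG00000027605, chromosome 2, 155517948 to 155585724), fell from 84.33, 78.39 and 88.92 CPM in naive wt to 35.75, 29.20 and 36.50 CPM at 24 h and 26.05, 36.74 and 20.29 CPM at 48 h. Its log2 fold change to 48 h was -1.60 in wt (SE 0.219, edgeR adjusted p 6.52e-06), -1.51 in KI (SE 0.218, edgeR adjusted p 1.70e-05) and -1.31 in libraries labelled KO (SE 0.266, edgeR adjusted p 6.41e-04). The last value was -0.69 without KO replicate 5 (edgeR adjusted p 0.0806), -2.02 without KO replicate 1, and -1.32 with the compared groups alone (edgeR adjusted p 0.0933), so 2 of these alternatives ended the call. Naive and stimulated libraries of Acss2 did not overlap in any genotype. Exons of Acss2 share bases on the opposite strand with Acss2os, Ggt7 and Gss, and whether counting used strand is not given in the sources used here, so reads of these genes could not be told apart if it did not.

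Both palmitate-making enzymes rose early. Acaca, acetyl-CoA carboxylase 1, which forms malonyl-CoA (ENSMUSG00000020532, chromosome 11, 84129672 to 84401651), had 23.40, 21.91 and 20.84 CPM in naive wt, 81.35, 101.3 and 70.61 CPM at 24 h and 87.35, 82.62 and 65.12 CPM at 48 h. Its libraries at 24 h and 48 h overlapped, and its log2 fold change was 1.94 at 24 h (SE 0.184) and 1.83 at 48 h (SE 0.184), with edgeR adjusted p of 1.28e-07 and 1.51e-07. Fasn, the fatty acid synthase that assembles palmitate (ENSMUSG00000025153, chromosome 11, 120805846 to 120824547), had 156.5, 172.9 and 133.5 CPM naive, 437.2, 624.3 and 397.1 CPM at 24 h and 535.7, 363.6 and 331.2 CPM at 48 h in wt. All stimulated wt libraries of Fasn exceeded all naive ones, by a log2 fold change of 1.66 at 24 h and 1.41 at 48 h (SE 0.313, edgeR adjusted p 8.84e-04).

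Elovl6, the elongase that extends palmitate to stearate (ENSMUSG00000041220, chromosome 3, 129532355 to 129638495), was higher in wt at 48 h than in naive cells. Its wt libraries had 23.96, 22.53 and 23.10 CPM naive, 33.01, 38.80 and 31.20 CPM at 24 h and 59.01, 45.41 and 51.23 CPM at 48 h. The 3 sets did not overlap, and the log2 rise to 48 h was 1.16 (SE 0.196, edgeR adjusted p 6.66e-05). The rise at 24 h (0.57, edgeR adjusted p 0.0226) was lost as a call when any 1 wt mouse was left out and under upper-quartile scaling. In KI no change of the gene passed the test, with 26.29, 26.58 and 28.43 CPM naive, 29.82, 29.02 and 27.61 CPM at 24 h and 25.42, 32.95 and 19.33 CPM at 48 h. The KI log2 change to 48 h was -0.07 (SE 0.194, edgeR adjusted p 0.802) and turned to 0.16 without KI replicate 5.

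The desaturases started from very different levels. Fads2, the delta-6 desaturase of polyunsaturated fatty acids (ENSMUSG00000024665, chromosome 19, 10064164 to 10101503), was low in naive wt, at 0.297, 0.267 and 0.380 CPM. It reached 2.37, 8.97 and 1.27 CPM at 24 h and 40.5, 48.4 and 12.4 CPM at 48 h, a log2 rise of 6.74 (SE 0.867, edgeR adjusted p 3.14e-06). The sets of the 3 times did not overlap, and the libraries of experiment 5 were the lowest at both stimulated times. Scd2, a delta-9 desaturase that makes oleate from stearate (ENSMUSG00000025203, chromosome 19, 44293676 to 44306864), had 93.58, 91.90 and 68.04 CPM in naive wt, 314.8, 593.3 and 175.9 CPM at 24 h and 1287, 1683 and 812.6 CPM at 48 h. Its log2 rise to 48 h was 3.90 (SE 0.437, edgeR adjusted p 5.92e-07), and again no time overlapped another. Fads1, the delta-5 desaturase that acts after Fads2 (ENSMUSG00000010663, chromosome 19, 10182888 to 10196870), had 17.92, 17.62 and 18.40 CPM naive, 55.66, 61.40 and 41.67 CPM at 24 h and 71.75, 80.73 and 50.41 CPM at 48 h in wt. Its log2 rise was 1.91 (SE 0.163, edgeR adjusted p 2.03e-08), most of it present at 24 h (1.56).

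Scd1, the other delta-9 desaturase (ENSMUSG00000037071, chromosome 19, 44394451 to 44407709), scattered widely within groups. Its wt libraries had 44.32, 85.27 and 86.10 CPM naive, 8.55, 23.9 and 15.4 CPM at 24 h and 76.67, 164.7 and 31.63 CPM at 48 h. It was lower at 24 h in all wt libraries, by a log2 change of -2.17 (SE 0.784, edgeR adjusted p 0.0287), and this call was lost when any 1 wt mouse was left out. From 24 h to 48 h its log2 value changed by 2.51 (SE 0.794, edgeR adjusted p 0.0618), and with the mouse as a block the value was 2.47 (edgeR adjusted p 0.00113). Against naive, its 48 h value of 0.34 in wt (SE 0.75, edgeR adjusted p 0.718) turned to -0.27 without wt replicate 3. Scd1 lies 87.6 kb from Scd2 and Fads1 lies 81.4 kb from Fads2 on chromosome 19, and each pair is of related sequence, so reads could be shared between them and their counts are uncertain to that extent.

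Acsl3, a long-chain acyl-CoA synthetase that is known on lipid droplets and the endoplasmic reticulum (ENSMUSG00000032883, chromosome 1, 78657825 to 78707743), rose in steps in wt. Naive wt libraries had 9.05, 9.14 and 8.35 CPM, those at 24 h had 23.47, 30.57 and 22.74 CPM and those at 48 h had 50.26, 55.88 and 49.83 CPM. No time overlapped another, and the log2 rise to 48 h was 2.56 (SE 0.201, edgeR adjusted p 7.57e-09). Exons of Acsl3 share 244 bases with Utp14b on the same strand, and those of Scd2 share 61 bases with Mir5114, so these counts are uncertain over those bases.

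The members fell into different time courses in wt. Acaca, Fasn, Acly and Fads1 had most of their 48 h change by 24 h (106%, 117%, 82.4% and 81.5% of the log2 change), as did Acss2 (82%). Acsl3 (60%), Fads2 (55.5%), Scd2 (53.8%) and Elovl6 (48.7%) had about an equal part still to come. Between 24 h and 48 h in wt, 3 members were called, all higher, against 7.45% of tested genes in either direction and 4.06% higher. These were Fads2 with a log2 change of 3.00 (SE 0.705, edgeR adjusted p 0.014), Scd2 with 1.80 (SE 0.401, edgeR adjusted p 0.0102) and Acsl3 with 1.02 (SE 0.191, edgeR adjusted p 0.00323). Elovl6 moved by 0.60 (SE 0.194, edgeR adjusted p 0.071), and with the mouse as a block by 0.59 (edgeR adjusted p 0.0305). The count of 3 was 0 without wt replicate 1, 1 when the compared groups alone were fitted and 5 with the mouse as a block.

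**Figure D2:**
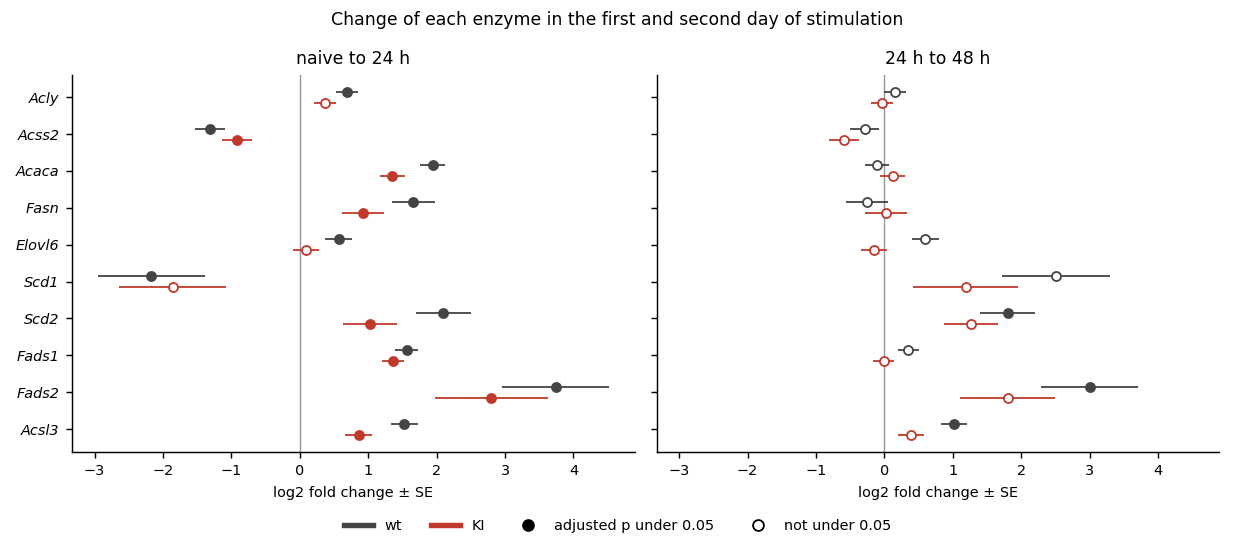
Log2 fold change ± SE from the edgeR fit for each enzyme, from naive to 24 h (left) and from 24 h to 48 h (right), in wt (grey, 3 mice) and KI (red, 3 mice). Filled points had an adjusted p under 0.05. In the second step the filled points are Scd2, Fads2 and Acsl3 in wt, and KI has none.

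In KI cells 7 members were called at each time against naive cells. With the compared groups alone fitted, 9 were called at each time, which added Acly (higher) and Scd1 (lower). That fit also called more of all genes, 10421 at 24 h and 11881 at 48 h. The fit over all libraries, to which the shares below belong, called 8206 and 10312. At 24 h the 7 were 6 higher and Acss2 lower, where 38.7% of tested genes were called (22.9% higher and 15.8% lower), and at 48 h again 7, 6 higher and Acss2 lower, where 48.7% were called (26.6% higher and 22.1% lower). The median log2 fold change of the members to 48 h was 1.09, against -0.02 over all tested genes. The 6 higher at both times were Acaca, Fasn, Scd2, Fads1, Fads2 and Acsl3, with log2 changes to 48 h of 1.48, 0.93, 2.30, 1.35, 4.60 and 1.25. The calls of Fasn at both times and of Scd2 at 24 h were lost when any 1 KI mouse was left out, and that of Fads2 at 24 h without KI replicate 3. Upper-quartile scaling also ended the calls of Fasn and Scd2 at 24 h, and RLE scaling that of Scd2 at 24 h. Acly did not pass, with 0.37 at 24 h (edgeR adjusted p 0.0757) and 0.33 at 48 h (edgeR adjusted p 0.0978). Scd1 had a KI value of -1.86 at 24 h (edgeR adjusted p 0.0661), which was -1.93 (edgeR adjusted p 5.66e-04) with the mouse as a block. Between 24 h and 48 h, 0 members were called in KI, where 2.68% of tested genes were called by edgeR. DESeq2 called 1 member there, and the fits with the experiment or the mouse as a block also called 1, which was Scd2 each time (log2 1.24 with the experiment as a block, edgeR adjusted p 0.00489). Over all genes 3286 had an unadjusted p under 0.05 in that comparison.

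Libraries labelled KO had most of the members called with stimulation. At 48 h against naive 8 members were called, 7 higher and Acss2 lower, where 44% of tested genes were called, 23.7% higher and 20.4% lower. Log2 rises were 6.03 for Fads2, 3.60 for Scd2, 2.56 for Acsl3, 1.96 for Fads1, 1.67 for Acaca, 1.29 for Fasn and 1.04 for Elovl6. The Fasn value rested on 1 mouse: its 48 h libraries had 155.9 CPM in replicate 1 and 582.2 CPM in replicate 5, beside 165.4 and 135.7 CPM naive, and without replicate 5 the log2 change was -0.09. Fitted on its own groups alone, this comparison called 4 members.

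Before stimulation no member passed the test between KI and wt. The edgeR test called 0 of 10, where 0.0803% of tested genes were called and 440 had an unadjusted p under 0.05, and DESeq2 also called 0 members. The median log2 difference of KI minus wt over the members was 0.05, against 0.01 over all tested genes. Libraries did not overlap for 4 members (10.6% of tested genes), with Acly and Elovl6 higher and Fads1 and Fads2 lower in KI. The naive KI libraries of Fads1 had 16.25, 16.40 and 16.46 CPM against 17.62 to 18.40 CPM in wt. Those of Fads2 had 0.193, 0.0723 and 0.234 CPM against 0.267 to 0.380 CPM, which are counts of 13, 5 and 17 reads or fragments in KI.

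At 24 h the edgeR test again called 0 members between KI and wt, where 0.00472% of tested genes were called and 1909 had an unadjusted p under 0.05. DESeq2 called 1, Acsl3, with a log2 difference of -0.78 (DESeq2 adjusted p 0.0488). Of the 10 edgeR log2 differences 9 were below 0, with a median of -0.49 against 0.01 over all tested genes. Acaca, Fasn, Elovl6 and Acsl3 were lower in all 3 KI libraries than in any wt library and Acss2 was higher, where 20.2% of tested genes did not overlap. Acsl3 had 14.69, 18.05 and 13.39 CPM in KI against 22.74 to 30.57 CPM in wt. Fasn had 341.0, 354.6 and 289.4 CPM in KI against 397.1 to 624.3 CPM in wt, and Acaca had 62.37, 64.14 and 47.70 CPM against 70.61 to 101.3 CPM. Within the 3 experiments the KI library was the lower one in 3 of 3 pairs for 8 members, and Acss2 was the higher one in 3 of 3. None of these differences passed the edgeR test. For Acaca, Fasn, Elovl6, Acsl3 and Acss2 the 3 of 3 follows from the lack of overlap. How many of all tested genes had 3 of 3 pairs on 1 side was not counted.

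At 48 h the members called between KI and wt were 3 of the 4 desaturases, the elongase and the activating enzyme. Scd1 and the enzymes of substrate supply and palmitate synthesis did not pass. No test compared these steps of the route with each other. The edgeR test called 5 of 10 members, all lower in KI, where 4.2% of tested genes were called and 1.91% were called lower. The median log2 difference of KI minus wt was -0.85 over the members and 0 over all tested genes. Acsl3 had 15.88, 28.69 and 15.83 CPM in KI against 50.26, 55.88 and 49.83 CPM in wt, a log2 difference of -1.37 (SE 0.193, edgeR adjusted p 7.45e-04). Elovl6 had 25.42, 32.95 and 19.33 CPM in KI against 59.01, 45.41 and 51.23 CPM in wt, a log2 difference of -1.0 (SE 0.196, edgeR adjusted p 0.00712). No KI library of either gene reached any wt library.

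Among the desaturases, Fads2 had 1.97, 7.77 and 2.48 CPM in KI at 48 h against 40.5, 48.4 and 12.4 CPM in wt, a log2 difference of -3.05 (SE 0.707, edgeR adjusted p 0.0193), or 8.28-fold lower. Scd2 had 380.7, 705.6 and 276.2 CPM in KI against 1287, 1683 and 812.6 CPM in wt, a log2 difference of -1.47 (SE 0.397, edgeR adjusted p 0.042). Fads1 had 42.62, 42.94 and 39.50 CPM in KI against 71.75, 80.73 and 50.41 CPM in wt, a log2 difference of -0.70 (SE 0.158, edgeR adjusted p 0.0173). The groups did not overlap for these 3 genes, and the KI values of Fads1 were much closer together than those of wt. Scd1 had 16.56, 31.65 and 31.95 CPM in KI against 76.67, 164.7 and 31.63 CPM in wt, which overlapped, and its log2 difference of -1.77 did not pass (SE 0.773, edgeR adjusted p 0.23).

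The enzymes of substrate supply and palmitate synthesis did not pass at 48 h. Acly had 283.8, 317.1 and 295.8 CPM in KI, all below the wt minimum of 350.0 CPM, with a log2 difference of -0.45 (SE 0.161, edgeR adjusted p 0.137). Fasn had 319.4, 379.4 and 298.4 CPM in KI against 331.2 to 535.7 CPM in wt, with a log2 difference of -0.30 (SE 0.307, edgeR adjusted p 0.671). Acaca had a log2 difference of -0.31 (SE 0.178, edgeR adjusted p 0.39). Acss2 had a log2 difference of 0.16 (SE 0.214, edgeR adjusted p 0.768), which was -0.03 without wt replicate 5. A total of 6 members had all KI libraries below all wt libraries, where 20.6% of tested genes did not overlap and 9.78% had all KI libraries lower.

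**Figure D3:**
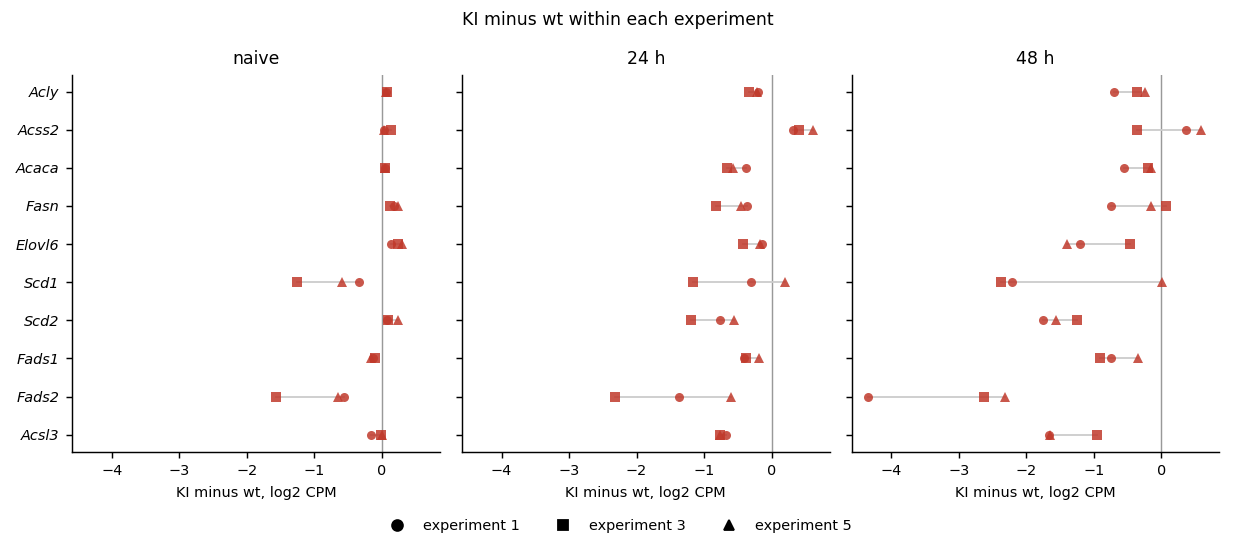
Log2 CPM of the KI library minus that of the wt library of the same experiment, for each enzyme, naive, at 24 h and at 48 h. Each point is 1 experiment and the grey line spans the 3. At 48 h all 3 points lie below 0 for Acly, Acaca, Elovl6, Scd2, Fads1, Fads2 and Acsl3, and Fads2 spans -4.34 to -2.31.

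The differences at 48 h had the same sign within experiments for the 5 called members. This follows from the lack of overlap, since no KI library of these genes or of Acly reached any wt library. How many of all tested genes had 3 of 3 pairs lower was not counted. The KI library was lower in 3 of 3 pairs for Fads2 (log2 -4.34 to -2.31), Scd2 (-1.76 to -1.25), Acsl3 (-1.66 to -0.96), Elovl6 (-1.40 to -0.46) and Fads1 (-0.91 to -0.35). Acly (-0.70 to -0.24) and Acaca (-0.56 to -0.15) were also lower in 3 of 3, while Fasn, Scd1 and Acss2 had pairs on both sides of 0. The calls themselves depended on the fit. With the 2 compared groups alone 0 of the 5 were called (Acsl3 at an edgeR adjusted p of 0.0555), and Acsl3 was the member that stayed called without any 1 of the 6 mice. Only Acsl3 was called without KI replicate 1, without KI replicate 5 or without wt replicate 1, and 3 members were called without wt replicate 3.

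Other measures moved with this comparison. Summed B cell markers were 79.3 to 170 CPM in KI and 34.7 to 92 CPM in wt at 48 h, Cd4 was 20.3 to 46.5 CPM in KI and 11.1 to 32.5 CPM in wt, and both ranges overlap. Within experiments the B cell sum was higher in KI than in wt in 3 of 3 pairs, and Cd4 was higher in KI in experiments 1 and 5 and lower in experiment 3. Summed stromal or endothelial markers were 146.5 to 196.3 CPM in KI and 86.4 to 92.2 CPM in wt and did not overlap, nearly all of it from Pecam1, an adhesion molecule that T cells also express (146.3 to 195.5 CPM in KI and 86.3 to 91.6 CPM in wt). Summed myeloid markers were 25.9 to 33.3 CPM in KI and 20.3 to 32.0 CPM in wt, and higher in KI in 3 of 3 pairs. Summed NK cell markers were at most 2.13 CPM in either. On the first principal component, along which naive libraries lay at -90.9 or below, KI libraries at 48 h lay at 49.5 to 61.8 and wt libraries at 74.7 to 88.9. The part of these in the lower values of Fads2, Scd2, Acsl3, Elovl6 and Fads1 was not tested. Summed adipocyte markers, from a cell type rich in these enzymes, were at most 1.03 CPM in any library, with Lep at 0 in all.

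The test of the difference between the responses was narrower than the comparison at 48 h. For the change from naive to 48 h, 1 of 10 members differed between KI and wt, where 0.387% of tested genes did and 0.25% were called lower. That member was Acsl3, whose log2 rise was 1.25 in KI and 2.56 in wt, a difference of -1.31 (SE 0.271, edgeR adjusted p 0.0428). The call was lost without any 1 mouse other than KI replicate 3, when the compared groups alone were fitted and under upper-quartile scaling (edgeR adjusted p 0.0583). For Elovl6 the difference was -1.23 (SE 0.275, edgeR adjusted p 0.0644), and it was called with the mouse as a block (-1.25, edgeR adjusted p 0.0222). For Scd2 it was -1.60 (SE 0.554, edgeR adjusted p 0.293), and it was called with the experiment as a block (-1.65, edgeR adjusted p 0.0255) and with the mouse as a block (-1.64, edgeR adjusted p 0.0317). Members called at 48 h but not here, such as Fads1 and Fads2, are not shown to respond differently. Of the log2 change in wt, KI had 94.4% for Acss2, 80.8% for Acaca, 70.6% for Fads1, 68.2% for Fads2, 66.2% for Fasn, 59.1% for Scd2, 48.8% for Acsl3 and 39.5% for Acly. For Elovl6 it was -5.61%, with no KI change called, and Scd1, whose change to 48 h was not called in wt (0.34) or KI (-0.67), had values of opposite sign.

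For the change from naive to 24 h and for that from 24 h to 48 h, the edgeR test of the difference between KI and wt called 0 members, and DESeq2 also called 0. Over all tested genes 0% and 0.00472% were called, with 692 and 1203 genes at an unadjusted p under 0.05.

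Between libraries labelled KO and wt, edgeR called 0 members naive (0.0236% of tested genes, 285 genes at an unadjusted p under 0.05) and 0 at 48 h (0.0283%, 1462 genes), and DESeq2 also called 0 at both. The median log2 difference over the members was 0.03 naive and -0.17 at 48 h, against 0.02 and -0.01 over all tested genes. Libraries did not overlap for 2 members naive, Acly higher and Fads1 lower in those labelled KO, and for 0 at 48 h, where 9.78% and 9.22% of tested genes did not overlap. Elovl6 in the replicate 1 library labelled KO lay between the highest KI (32.95 CPM) and the lowest wt value (45.41 CPM) at 48 h. Acsl3 had 59.55 and 49.54 CPM in libraries labelled KO at 48 h, Elovl6 had 36.92 and 62.87 CPM, and Fads2 had 29.28 and 15.99 CPM. Scd2 had 1275 and 793.8 CPM, and Fads1 had 65.48 and 56.44 CPM. The replicate 1 library was lower than that of replicate 5 for Acly (234.7 and 423.3 CPM), Acaca (52.13 and 85.67 CPM) and Fasn (155.9 and 582.2 CPM), and higher for Acss2 (44.25 and 23.86 CPM). With that library as the only one labelled KO at 48 h, the log2 differences from wt were -0.80 for Acly, -1.40 for Fasn and 0.67 for Acss2. A call from a lone library assumes that it varies like the other groups, so none is given here. The difference between libraries labelled KO and wt in the response to 48 h was called for 0 members by edgeR and by DESeq2 (0% of tested genes, 496 genes at an unadjusted p under 0.05).

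Levels of different members are compared per length, in FPKM. In naive wt, Acly had the highest level at 51.2 ± 0.469 FPKM (SD, n = 3), followed by Fasn at 18.6 ± 2.55, Scd2 at 18.4 ± 3.22 and Scd1 at 17.7 ± 5.91 FPKM, which overlapped. Acss2 had 9.81 ± 0.526, Fads1 6.18 ± 0.0847, Elovl6 4.29 ± 0.111, Acsl3 2.41 ± 0.137, Acaca 1.53 ± 0.092 and Fads2 0.248 ± 0.0442 FPKM, each below the range of the one before. By 48 h in wt the order had changed. Scd2 led at 258 ± 88.1 FPKM, above Acly at 86.2 ± 12.1 and Fasn at 46.6 ± 12.7 FPKM, and Fads2 at 25.0 ± 14, Fads1 at 21.9 ± 4.97 and Scd1 at 21 ± 15.5 FPKM overlapped one another. Acsl3 had 13.3 ± 0.788, Elovl6 9.02 ± 1.24, Acaca 5.13 ± 0.768 and Acss2 3.04 ± 0.900 FPKM, the last below all others. In KI at 48 h Scd2 at 92.5 ± 46.5 FPKM overlapped Acly at 62.8 ± 4.03 FPKM, and Fads2 at 3.01 ± 2.40 FPKM lay below Fads1 at 13.4 ± 0.691 FPKM.

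The ratio of FPKM values within a library shows how paired desaturases shifted. Fads2 over Fads1 was 0.0379, 0.0347 and 0.0473 in naive wt and 1.29, 1.37 and 0.565 in wt at 48 h. In KI at 48 h it was 0.106, 0.415 and 0.144, below each wt library. The 2 libraries labelled KO had 1.02 and 0.649. Scd2 over Scd1 was 1.87, 0.956 and 0.701 in naive wt and 14.9, 9.06 and 22.8 in wt at 48 h, and in KI it was 2.48, 2.44 and 1.24 naive and 20.4, 19.8 and 7.67 at 48 h. KI and wt overlapped in this ratio at both times.

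Scd1 varied among naive libraries in step with markers of other cell types. Its 8 naive values were 35.00, 35.64 and 57.06 CPM in KI, 44.32, 85.27 and 86.10 CPM in wt and 250.9 and 21.31 CPM in libraries labelled KO. The summed CPM of the B cell markers Cd79a, Cd79b, Ms4a1 and Pax5 ran from 107 to 866 over these libraries and put them in the same order. Across the 8 libraries Pearson's r was 0.996 and Spearman's rho 1.0, each with an exact permutation p of 5e-05, the smallest the permutations can give for these values, and 4.5e-04 after Benjamini-Hochberg adjustment over 9 marker lists. Without the 2 libraries farthest from the median of the marker sum r was 0.946. For Cd4, r was 0.994 (exact permutation p 3.5e-04, adjusted 0.0016) and rho 0.952 (exact permutation p 0.0011, adjusted 0.0034), and r was 0.987 without the 2 farthest libraries. Summed myeloid markers gave r 0.796 (exact permutation p 0.004, adjusted 0.010) and rho 0.952 (exact permutation p 0.0011, adjusted 0.0034), and r was 0.731 without the 2 farthest libraries. NK cell markers gave r 0.976 (exact permutation p 0.0045, adjusted 0.010) and rho 0.786 (exact permutation p 0.028, adjusted 0.063), with r 0.782 without the 2 farthest. CD8 T cell markers gave r -0.912 (exact permutation p 0.017, adjusted 0.031) and rho -0.738 (exact permutation p 0.046, adjusted 0.082), a relation that rests on the 2 farthest libraries, without which r was -0.389. For adipocyte, erythroid, stromal or endothelial and salivary gland markers r and rho had adjusted exact permutation p of 0.36 or more. The libraries differ in genotype and experiment, 1 of them stands apart, and whether other cells set the Scd1 level was not tested. No correlation was computed for stimulated libraries. At 48 h the B cell sums were 84.8, 79.3 and 170.2 CPM in KI and 34.7, 46 and 92 CPM in wt. Scd1 had 16.56, 31.65 and 31.95 CPM in those KI libraries and 76.67, 164.7 and 31.63 CPM in wt, so KI and wt did not keep the order there. The libraries labelled KO did, with sums of 126.4 and 26.2 CPM and Scd1 at 140.3 and 15.23 CPM. No other member was compared with the markers in this way. Fads2 also had its highest naive value, 0.565 CPM, in the library with the highest B cell sum. Its lowest, 0.0723 CPM in KI replicate 3, was not in the library with the lowest sum.

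**Figure D4:**
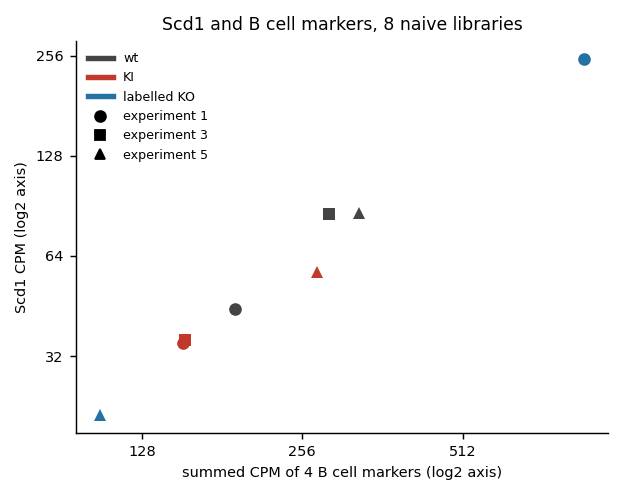
CPM of Scd1 against the summed CPM of 4 B cell markers in the 8 naive libraries, both on log2 axes, coloured by genotype with shapes for experiments. The libraries run in 1 order from 21.31 CPM of Scd1 at a marker sum of 107 CPM to 250.9 CPM at 866 CPM.

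Further genes of the pathway were counted from lists chosen with earlier results of these data known. Unlike the members, the genes of these lists were not followed under alternative fits. Over all genes the calls in KI against wt at 48 h were 889, and 89 to 1701 under those fits. In KI against wt at 48 h, regulators of lipogenic transcription had 1 higher and 2 lower of 13 tested, with a median log2 difference of -0.31. Of all tested genes 4.2% were called in that comparison and 1.91% were called lower. Insig1, which holds SREBP in the endoplasmic reticulum and is itself an SREBP target, had 44.8 ± 8.48 CPM in KI and 87.5 ± 9.87 CPM in wt (SD, n = 3 each), a log2 difference of -0.96 (edgeR adjusted p 0.0192). Srebf1, which encodes SREBP-1, had 100 ± 10.9 and 149 ± 32.6 CPM (SD, n = 3 each), a log2 difference of -0.57 (edgeR adjusted p 0.0373). Mylip, a ubiquitin ligase of the LDL receptor induced by LXR, had 15.4 ± 2.82 and 8.20 ± 1.26 CPM (SD, n = 3 each), a log2 difference of 0.90 (edgeR adjusted p 0.00668). In wt at 48 h against naive this list had 5 higher and 4 lower of 13, where 29.6% of all tested genes were higher and 26.8% lower.

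Citrate, acetyl-CoA and NADPH supply had 2 lower of 9 tested in KI against wt at 48 h, with a median of -0.20. Of all tested genes 4.2% were called there and 1.91% were called lower. Idh1, which makes cytosolic NADPH, had 5.60 ± 0.869 CPM in KI and 15.2 ± 1.97 CPM in wt (SD, n = 3 each), a log2 difference of -1.44 (edgeR adjusted p 0.00273), and Slc25a1, the mitochondrial citrate carrier, differed by -0.66 (edgeR adjusted p 0.0135). In wt at 48 h against naive this list had 8 higher and 1 lower of 9, where 29.6% of all tested genes were higher and 26.8% lower. In KI against wt at 48 h, other fatty acid activation and uptake genes had 1 higher and 2 lower of 14 tested, with a median of -0.10. Acsl6 had 0.344 ± 0.250 CPM in KI and 3.12 ± 0.875 CPM in wt (SD, n = 3 each), a log2 difference of -3.17 (edgeR adjusted p 0.00571), Acsl5 differed by -0.38 (edgeR adjusted p 0.048) and Slc27a4, a fatty acid transport protein, was higher by 0.85 (edgeR adjusted p 0.00709). Acsl6 was low in KI, at 0.124 to 0.616 CPM, and its difference had an SE of 0.599, against 0.193 for Acsl3. Acsl1 and Acsl4 were also in this list and not among its called genes.

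The remaining lists are given for KI against wt at 48 h, where 4.2% of all tested genes were called and 1.91% were called lower. Glycerolipid assembly genes had 2 lower of 16 tested, with a median of -0.22. Pcyt1a, which controls phosphatidylcholine synthesis, differed by -0.70 (edgeR adjusted p 0.0182) and Pcyt2, its counterpart for phosphatidylethanolamine, by -0.60 (edgeR adjusted p 0.0194). Other elongation and desaturation genes had 1 lower of 14 tested, Tecr (-0.42, edgeR adjusted p 0.0316), with a median of -0.28. Malonyl-CoA and mitochondrial synthesis genes had 0 of 7 called, with a median of -0.07. In wt at 48 h against naive these 3 lists had 7, 11 and 4 genes higher and 0, 1 and 2 lower, of 16, 14 and 7. In that comparison 29.6% of all tested genes were higher and 26.8% lower.

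The genes whose profile over the 8 group means lay nearest to each member were found among 14735 others by the root mean square difference of centred log2 CPM. For Acaca these were Dnmt1 (0.0604) and Pcna (0.0613), for Acly Twnk (0.0394) and Tnpo3 (0.0425), and for Acss2 Kmt2d (0.0307) and Gabbr1 (0.0646). For Acsl3 they were Gdpd1 (0.112) and Tmbim1 (0.142), and for Elovl6 Dhdh (0.0684) and Gcdh (0.0884). Fads2 and Scd1 had no such close profile: the nearest to Fads2 were Psrc1 (0.598) and Il12rb2 (0.613), and the nearest to Scd1 were Zfp385a (0.351) and Cd38 (0.431). For Scd2 the nearest was Mir5114 (0.0727), which lies within its exons and may count the same reads, and then Gm43549 (0.221). For Fasn they were Mybbp1a (0.0704) and Gm9816 (0.0826), and for Fads1 Gm6261 (0.0767) and Gemin8 (0.0824). Within the 10, Acaca and Fads1 were nearest to each other (0.172), and Acss2, Scd1 and Fads2 were far from every other member (0.954, 1.01 and 1.19 to the nearest). For Fads2 that member, Scd2, still ranked 169 among the 14735 genes. The nearest members of Acss2 and Scd1 ranked 10019 and 4629.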

How the data were processed

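Groups came from the labels. The authors deposited whole-number counts per Ensembl gene (46603 genes, 30301 with a count), and log2 normalized values and FPKM, which equal those counts divided by 1 factor per library and by 1 length per gene within rounding (largest relative deviations 3.6e-14 and 7.6e-14). The submitters' processing notes name bcl2fastq 2.20.0, TopHat2 2.1.0, Bowtie2 2.2.5, SAMtools 0.1.19, featureCounts, DESeq2 1.6.3 and the builds GRCm38 and mm10, with no roles; the annotation, and whether counting used strand, are not given in the sources used here. Libraries were from a stranded poly(A) kit, per the labels' protocols.

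Counts were filtered with filterByExpr (minimum count 10, total 15), scaled by TMM and fitted as 8 group means over 22 libraries with 14 residual degrees of freedom, using the quasi-likelihood F test of edgeR 4.0.16 in R 4.3.3, with Benjamini-Hochberg adjustment over 21183 genes and calls at an adjusted p under 0.05. SE is the size of the log2 fold change divided by the root of F. On simulated data the test was checked first. Alternatives were RLE and upper-quartile scaling, no count filter, a block of experiment or mouse, the compared groups alone, leaving out each mouse, DESeq2 1.42.0 and, chosen after seeing the data, a robust fit. Replicates are different mice. The numbers pair the libraries, since mouse and experiment are given for each in the labels. Deviations from group means correlated with a median r of 0.22 in 9 same-experiment pairs of KI and wt libraries, 8 of them over 0.1. Other pairs had -0.178, but deviations within a group cancel out, so this value follows largely from the first and is no separate evidence. No replicate pair was a duplicate (chi-square per degree of freedom of at least 14.4). Positions are those of the deposited tables. Promoters are from RefSeq on GRCm38.p6, and motifs were searched on both strands.

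The members, gene lists and tests were chosen with earlier results of these data known. All members are named. From each list the up to 3 called genes with the smallest adjusted p in KI against wt at 48 h are named, and for each member the 2 nearest profiles among genes of at least 1 mean CPM. The 9 marker lists were CD8 T, CD4 T, B, myeloid, NK, erythroid, adipocyte, stromal or endothelial and salivary gland. Summed levels over all libraries were 0.143 to 245 CPM for NK, 0.264 to 41.4 for erythroid, 68.1 to 206 for stromal or endothelial, 2.05 to 69.0 for salivary gland and 20.3 to 253 for myeloid markers. The highest NK, salivary gland and myeloid sums were in the naive replicate 1 library labelled KO. Salivary gland sums of naive libraries were 30.7 and 69.0 CPM in those labelled KO, 8.02 to 12.2 CPM in KI and 6.55 to 9.03 CPM in wt. One item of the B cell list is not reported here and was left out of its sums.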

Additional observations from a re-analysis of the deposited data

Results flagged for a closer look

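The change of Acsl3 from naive to 48 h differed between KI and wt by -1.31 on the log2 scale in a direct test of the difference (edgeR adjusted p 0.0428, range 0.00169 to 0.387 over 14 alternatives). The gene rose in all 3 mice of each genotype, by 1.25 in KI and 2.56 in wt.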

How the results depend on the processing

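Over 960 values of members under alternatives, 863 kept their direction and side of the threshold, 57 lost a call, 29 gained one and 11 changed sign; the causes were not tested. Fitting the compared groups alone changed the count of called members to 0 in KI against wt at 48 h, 1 in wt at 48 h against 24 h, 1 in KI at 48 h against 24 h, 4 in libraries labelled KO at 48 h against naive and 9 (from 7) in KI at 24 h and at 48 h against naive, with fewer samples to estimate the spread. DESeq2 called 1 member in KI against wt at 24 h, 5 in wt and 1 in KI at 48 h against 24 h, and 2 for the difference between KI and wt in the change to 48 h. The replicate block by experiment gave 1 in KI at 48 h against 24 h and 2 for that difference, the replicate block by mouse gave 5 in wt and 1 in KI at 48 h against 24 h and 3 for that difference, and neither block ended a call of a member. Upper-quartile scaling gave 0 for that difference. Leaving out 1 mouse gave 1 to 5 members in KI against wt at 48 h, 0 to 3 in wt at 48 h against 24 h, 4 to 5 in KI at 24 h against naive and 0 to 1 for the difference between KI and wt in the change to 48 h. Fits without 1 of the mice labelled KO leave a lone library in each group labelled KO. Their counts of calls are not given, though the 960 values above include them. The values that changed sign did so without 1 mouse. Acss2 in KI against wt at 48 h ranged from -0.03 to 0.41. In libraries labelled KO against wt at 48 h Acly ranged from -0.80 to 0.06, Acss2 from -0.21 to 0.67 and Fasn from -1.40 to 0.51, with 0.09 without wt replicate 1. In the change to 48 h Scd1 in wt ranged from -0.27 to 0.90, Elovl6 in KI from -0.29 to 0.16 and Fasn in libraries labelled KO from -0.09 to 2.11. The difference of libraries labelled KO and wt in that change ranged from -0.83 to 0.01 for Acly and from -1.50 to 0.69 for Fasn, with 0.11 without wt replicate 1. Counts over all genes moved by more than 1.5 times from 889 to between 89 and 1701 (KI against wt, 48 h), 17 to 3 and 79 (naive) and 1 to 57 (24 h), 5 to 1 and 6 to 0 (libraries labelled KO against wt, naive and 48 h), 1578 to 133 and 2447 (wt, 48 h against 24 h), 567 to 0 and 1301 (KI, 48 h against 24 h), 8206 to 4855 (KI, 24 h against naive), 9326 to 1373 (labelled KO, 48 h against naive), and 82 to 1 and 360, 1 to 0 and 49, and 0 to 3 (KI minus wt in the changes to 48 h, from 24 h to 48 h and to 24 h). Upper-quartile scaling moved the median of all genes by -0.17 to -0.219 in the comparisons of stimulated with naive cells, and the share of higher calls from 54.5% to 42.5% and 52.5% to 41.7% in wt (24 h and 48 h), from 59.2% to 44.9% and 54.6% to 42.9% in KI and from 53.7% to 43.1% in libraries labelled KO, and Elovl6 in wt and Fasn and Scd2 in KI at 24 h were not called under it. Fads2 in naive cells, at under 0.6 CPM, is limited by depth.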
